A study of Mus musculus with 18 samples.

Results

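Cyp46a1 encodes cholesterol 24-hydroxylase, and its transcript was followed across the livers of 18 mice as 1 gene of 23337 in the count table of the females and 1 of 38924 in that of the males. It was selected on its measured counts in mice that had received the gut microbiota of penicillin-treated donors. The difference between those recipients and their controls is therefore a description and carries no test. In 5 of the 6 groups the mean was 1.46 to 3.32 CPM (counts scaled to a common library size), and in the sixth it was 103 CPM.

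The groups held 3 mice each, all killed at 8 weeks of age on high-fat food that supplied 45% of energy as fat. LDP-microbiota recipients (mice 2, 5 and 8) and control-microbiota recipients (mice 1, 3 and 7) were Swiss Webster females raised germ-free and colonised at 3 weeks with microbes from female mice given low-dose penicillin (LDP) or from untreated females, and neither group was given antibiotic. LDP females (39, 52 and 54) and control females (29, 30 and 32), and LDP males (8, 10 and 11) and control males (5, 6 and 7), were C57BL6J mice with penicillin from birth or none, weaned at 4 weeks and moved to the high-fat diet at 6 weeks. The number of donors and the cages and litters are not given in the sources used here, and Swiss Webster is an outbred stock, so recipients may differ in genotype as well as in microbes. The 12 female libraries held 17937005 to 28646168 counts and the 6 male libraries 70336366 to 74418889. Xist and 4 Y-linked genes fitted the stated sex of every mouse, and no library was a copy of another.

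Cholesterol 24-hydroxylase is a cytochrome P450 of the endoplasmic reticulum that adds a hydroxyl group to the side chain of cholesterol. The product, 24S-hydroxycholesterol, crosses membranes more easily than cholesterol, and in mice the enzyme is best known in neurons of the brain, where it is the main route by which cholesterol leaves. The oxysterol is a ligand of the liver X receptors (LXR), it restrains the processing of the transcription factor SREBP2, and in the liver it is taken further by the 7α-hydroxylase Cyp39a1 towards bile acids. The liver's own cholesterol hydroxylases are chiefly Cyp7a1 and Cyp27a1.

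The gene (ENSMUSG00000021259) lies on chromosome 12 of GRCm38, the build also called mm10 that the submitters' processing notes name, from 108334381 to 108362234 on the plus strand in GENCODE M21. Its protein-coding transcript has 15 exons and 2118 bases, and no other gene of that annotation overlaps it on either strand. The promoter as RefSeq gives it for GRCm38.p6 is shown to give the sequence at the start of the gene the results turn on. It covers 250 bases before and 50 after the RefSeq start, chr12:108334066-108334365, and capitals mark each GC box (GGGCGG on either strand), the site class that Sp-family factors bind.
Cyp46a1 promoter: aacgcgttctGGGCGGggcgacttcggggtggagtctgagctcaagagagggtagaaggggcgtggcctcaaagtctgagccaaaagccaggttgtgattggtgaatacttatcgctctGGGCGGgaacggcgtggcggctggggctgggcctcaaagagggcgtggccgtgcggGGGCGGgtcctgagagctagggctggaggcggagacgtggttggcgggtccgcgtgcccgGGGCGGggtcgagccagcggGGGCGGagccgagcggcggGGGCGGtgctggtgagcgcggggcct
The GC box occurred 6 times in these 300 bases without overlap, while 35.7% of the 32851 promoters in the same table had at least 1 and 1.35% had as many. The TATA box (TATAAA, either strand) had 0 matches in this window, where 13.6% of promoters had at least 1. GC content was 70.3%, where the median promoter had 52.7%, and CpG pairs numbered 31 against a median of 7. This is the C57BL/6J reference, and the sequence carried by the Swiss Webster recipients was not analysed here.

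In LDP-microbiota recipients Cyp46a1 stood at 22.4 CPM in mouse 2, 158 in mouse 5 and 128 in mouse 8, against 2.63, 4.4 and 2.93 CPM in control-microbiota recipients 1, 3 and 7. CPM were taken on library sizes after TMM scaling, and behind these values are 493, 2885 and 3438 counts in the LDP-microbiota recipients and 52, 98 and 63 in their controls. Every LDP-microbiota recipient was above every control-microbiota recipient, and the groups did not overlap. The means were 103 ± 71.3 CPM and 3.32 ± 0.951 CPM (SD, n = 3 each), a 31.0-fold ratio, and the fitted log2 change was 4.93.

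The LDP-microbiota recipients also differed among themselves. Mouse 5 was 7.04-fold above mouse 2, and on the log2 scale their SD was 1.55, against 0.39 among control-microbiota recipients. The lowest of them, mouse 2, was still 5.09-fold above the highest control-microbiota recipient and 6.76-fold above the mean of that group. Counting error was small beside these gaps: the exact 95% Poisson interval, which covers counting error only, was 20.5 to 24.5 CPM in LDP-microbiota recipient 2, and 3.57 to 5.37 CPM in control-microbiota recipient 3, the highest of the controls. Leaving out any 1 of the 6 recipients gave log2 changes of 4.49 to 5.41.

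**Figure D1:**
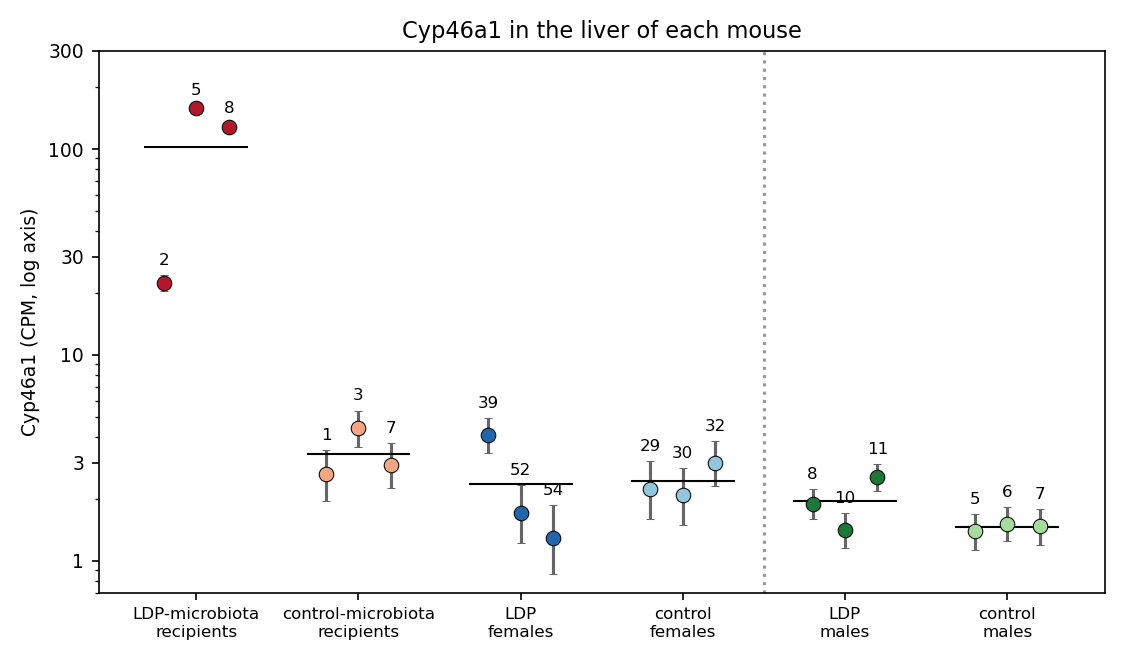
Cyp46a1 in each mouse, in CPM on a log axis, by group, with mouse numbers above the points, exact 95% Poisson intervals as bars and group means as lines; the dotted line parts the female from the male count table. The 3 LDP-microbiota recipients lie between 22.4 and 158 CPM, and the highest of the other 9 females is at 4.4 CPM.

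Set against all 12 female libraries, the 3 LDP-microbiota recipients were above the other 9 for 327 of 13295 genes (2.46%), and below all 9 for 220 (1.65%). For 2 of the 327 the gap between the lowest LDP-microbiota recipient and the highest of the other 9 was at least 2-fold: Cyp46a1, with 5.09-fold, and AA465934, a noncoding transcript, with 6.76-fold. Cyp46a1 had the largest log2 change of the 12780 genes fitted in the recipients. A fitted change of at least 8-fold was found for 3 genes, all of them higher. AA465934 stood at 3.18, 4.98 and 3.21 CPM in LDP-microbiota recipients 2, 5 and 8, and at 0.270 to 0.418 CPM in control-microbiota recipients. Isyna1, which makes inositol phosphate from glucose phosphate, stood at 37.5, 4.38 and 88.9 CPM in LDP-microbiota recipients 2, 5 and 8, and at 3.53 to 6.02 in their controls. The mice that carried the change therefore differed between genes: Isyna1 was high in mice 2 and 8, whereas Cyp46a1 was highest in mouse 5, where Isyna1 was at the control level.

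The quasi-likelihood fit of the recipients called 1 gene of 12780 (0.00782%) at an adjusted p under 0.05, which was AA465934. At an unadjusted p under 0.05 it had 653 genes (5.11%, with 2.25% higher and 2.86% lower), and DESeq2 called 28. Groups without overlap were found for 861 higher (6.74%) and 646 lower genes (5.05%), and 48.4% of all genes had a change above 0.

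**Figure D2:**
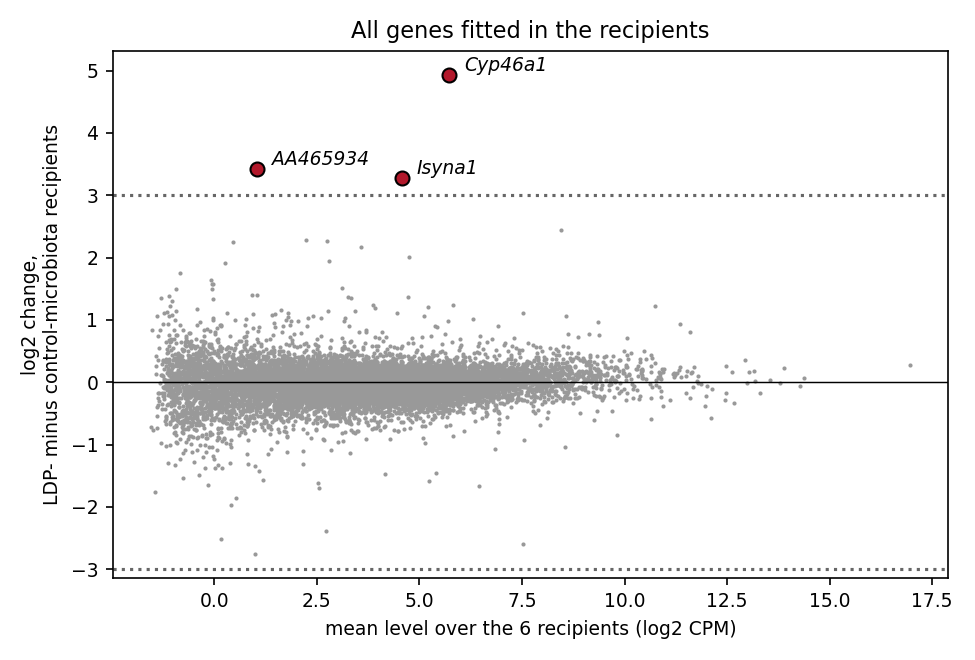
Log2 change between LDP- and control-microbiota recipients for the 12780 genes fitted, against the mean level over the 6 recipients in log2 CPM; dotted lines mark 8-fold. Cyp46a1 lies highest, at 4.93, and AA465934 and Isyna1 are the other genes beyond 8-fold.

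The C57BL6J mice compare penicillin from birth with none, and effects of the drug and of their gut microbes cannot be told apart there. The gene was chosen for its values in recipients, but with earlier results of these data known. The choice may therefore also touch the tests in C57BL6J mice. LDP females stood at 4.08, 1.71 and 1.29 CPM (mice 39, 52 and 54), against 2.23, 2.08 and 2.99 CPM in control females 29, 30 and 32. One LDP female was above all controls and the others were below them, so the groups overlapped. The means were 2.36 ± 1.5 and 2.44 ± 0.487 CPM (SD, n = 3 each), with a log2 change of -0.03 and a 95% interval of -0.98 to 0.92 (adjusted p = 0.999, edgeR quasi-likelihood test). The exact two-sided permutation test of the 6 log2 values gave p = 0.8, where 0.1 is the smallest p that 3 mice against 3 allow. The change was -0.69 without LDP female 39 and 0.26 without LDP female 54, so its direction rested on single mice. In the same fit 0 of 12914 genes (0%) passed by edgeR, with 4.51% at an unadjusted p under 0.05 and 15 genes called by DESeq2, and 50.9% of genes had a change above 0.

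LDP males stood at 1.89, 1.41 and 2.54 CPM (mice 8, 10 and 11), against 1.39, 1.51 and 1.47 CPM in control males 5, 6 and 7. Mice 8 and 11 were above all controls and mouse 10 was among them. The means were 1.95 ± 0.570 and 1.46 ± 0.0657 CPM (SD, n = 3 each), with a log2 change of 0.42 and a 95% interval of -0.10 to 0.93 (adjusted p = 0.92, edgeR quasi-likelihood test, where 1 gene of 15438, 0.00648%, passed). The exact two-sided permutation p was 0.3. In that fit 5.23% of genes had an unadjusted p under 0.05, 3.17% as higher genes, and 50.7% had a change above 0. Without LDP male 11 the change was 0.18. The difference between these changes and the one described in recipients was not tested, because recipients chose the gene. At these levels depth limits what can be seen: 28 counts in LDP female 54 gave an interval of 0.860 to 1.87 CPM.

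Ordered by their means within the female table, the groups ran from LDP-microbiota recipients (103 CPM) to control-microbiota recipients (3.32), control females (2.44) and LDP females (2.36). The first step was beyond the spread of the mice, and each later step was within it, with ranges of 2.63 to 4.4, 2.08 to 2.99 and 1.29 to 4.08 CPM. The males were counted in a separate table with other gene models, so their levels of 1.39 to 2.54 CPM cannot be ranked against those of the females. Control-microbiota recipients were 1.36-fold above control females. The fit of both recipient groups together against both C57BL6J female groups gave a log2 change of 2.93 for Cyp46a1, which is given without a test because the LDP-microbiota recipients that chose the gene enter that mean. In that fit 26.7% of 13295 genes passed. Strain, rearing without microbes and the transfer are the same split in it and cannot be told apart. The start of the high-fat diet is given only for the C57BL6J mice, so the length of the diet may follow that split too.

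Bulk liver RNA holds all cell types of the organ, and more cells of a type and more RNA per cell cannot be told apart. The hepatocyte markers were abundant in every mouse, with summed levels of 152000 to 185000 CPM in LDP-microbiota recipients and 121000 to 157000 CPM in control-microbiota recipients. Because Cyp46a1 is known as a neuronal gene, markers of neurons were read beside it. Of 12 neuronal markers, Snap25 (a protein of vesicle fusion), Elavl4, Gap43 and the neurofilament genes Nefl and Nefm had 0 counts in all 3 LDP-microbiota recipients, and 6 of the 12 had 0 in all control-microbiota recipients. The sum of the 12 was 18.2 to 34.0 CPM in LDP-microbiota recipients and 13.9 to 28.7 in control-microbiota recipients. Among LDP-microbiota recipients it was 29.3, 34 and 18.2 CPM in mice 2, 5 and 8. The sum was thus highest of the 12 females in mouse 5, which also had the highest Cyp46a1. It was low in mouse 8, where Cyp46a1 stood at 128 CPM. Most of the sum was Syt1, a calcium sensor of vesicle release, at 25.4 ± 8.23 CPM in LDP-microbiota recipients and 18.6 ± 6.84 CPM in control-microbiota recipients (SD, n = 3 each). For 7 markers of glia and Schwann cells the sums were 21.7 to 22.8 and 13.9 to 32 CPM. Sox10 and S100b were at 0 in all LDP-microbiota recipients, and 0 of the 7 were at 0 in all control-microbiota recipients.

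Other tissues that also lie near the liver were read in the same way. The summed level of 6 markers of exocrine pancreas was 41.6 to 56.3 CPM in LDP-microbiota recipients and 19.7 to 34.5 in control-microbiota recipients, without overlap. Nearly all of it was the elastase Cela1, at 48.8 ± 7.39 against 29.1 ± 8.18 CPM (SD, n = 3 each). The acinar markers Cpa1, Ctrb1, Cel and Pnlip were at 0 in all LDP-microbiota recipients, and Prss2 was not. In control-microbiota recipients only Cel and Cpa1 were at 0 in all mice. Markers of the adrenal cortex, which makes steroids from cholesterol, summed to 4.54 to 10 CPM and 4.55 to 5.71 CPM, with Cyp11b1 at 0 in both groups. The sums overlapped between the groups for Kupffer cells (488 to 565 and 438 to 635 CPM), stellate cells (409 to 453 and 395 to 461 CPM), endothelial cells (319 to 456 and 387 to 438 CPM) and bile duct cells (26.1 to 30.7 and 28.9 to 34.4 CPM). Tested in recipients were 7 hepatocyte, 7 Kupffer, 6 stellate, 6 endothelial, 4 bile duct, 4 glial, 3 neuronal, 2 adrenal and 1 pancreatic marker. Over these 9 marker lists 0 tested genes passed by edgeR, and over all genes 5.11% had an unadjusted p under 0.05. Of the tested markers 4 did: 1 of 7 hepatocyte, 1 of 3 neuronal, 1 of 2 adrenal and the 1 pancreatic marker. Cela1 and the steroid enzyme Hsd3b1 were higher, and the neuronal Map2 and the urea cycle enzyme Cps1 were lower. What part these cells had in the level of Cyp46a1 was not tested.

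None of the genes fitted around Cyp46a1 passed in the recipients. Within 500 kb on chromosome 12, counted between gene starts, the annotation has 18 other genes, of which 10 are in the female table and 7 had enough counts to be fitted in the recipients. Of those 7, 2 were higher and 5 lower in LDP-microbiota recipients, with a median log2 change of -0.09 where all genes had -0.01. By edgeR 0 passed, 0 had an unadjusted p under 0.05, and DESeq2 called 0. Ccnk, a cyclin, was the 1 neighbour of the 7 whose groups did not overlap, as a lower gene, where 5.05% of all genes did so. It stood at 16.9 ± 0.676 CPM in LDP-microbiota recipients and 17.9 ± 0.105 CPM in control-microbiota recipients. Hhipl1, whose start lies upstream at -28111 bases on the same strand, stood at 0.550 ± 0.238 CPM in LDP-microbiota recipients and 0.789 ± 0.281 CPM in control-microbiota recipients (SD, n = 3 each; log2 change -0.56 ± 0.43 SE). Eml1, a microtubule-binding protein that starts 36576 bases downstream, stood at 2.63 ± 0.546 and 3.49 ± 0.750 CPM (log2 change -0.42 ± 0.25 SE). Yy1, a widely expressed zinc finger factor, stood at 49.5 ± 3.40 and 47.4 ± 4.20 CPM.

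**Figure D3:**
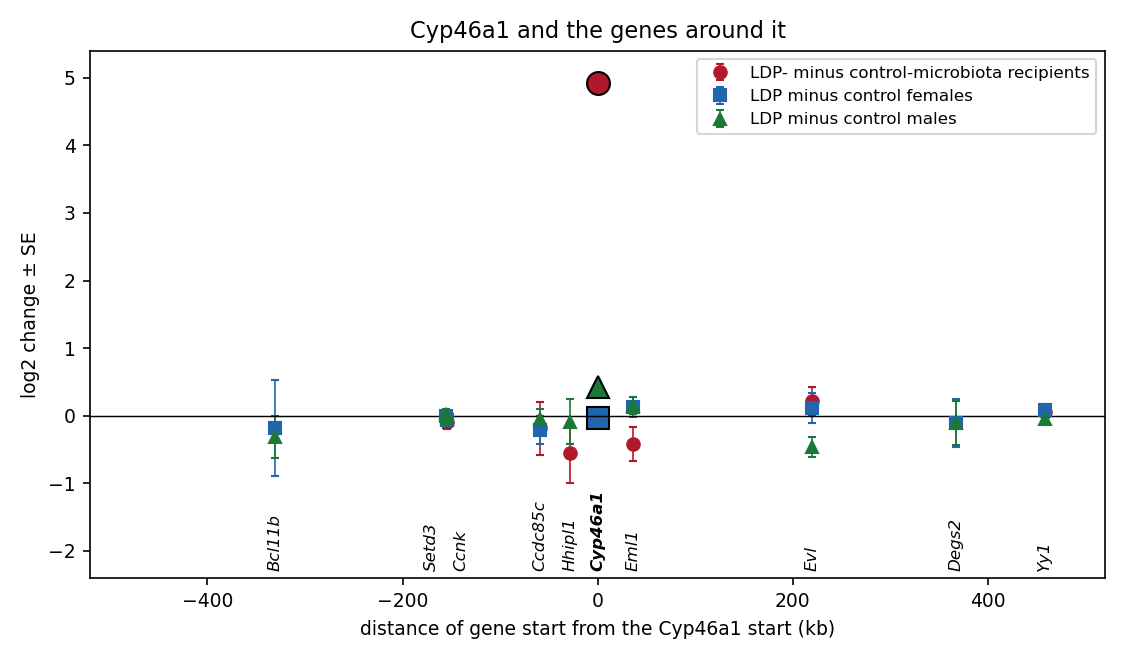
Log2 change of Cyp46a1 (large symbols, no error shown) and of the fitted genes within 500 kb (small symbols, ± SE), against the distance of gene starts in kb, in recipients, C57BL6J females and males. Cyp46a1 in recipients lies at 4.93, and its neighbours lie between -0.56 and 0.21 in the same comparison.

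In LDP against control females 8 of these neighbours were fitted, 4 higher and 4 lower, with 0 passing and 0 at an unadjusted p under 0.05. In males 9 were fitted, 2 higher and 7 lower, and 0 passed. Evl, an actin regulator, had an unadjusted p of 0.0111 there (edgeR quasi-likelihood test), at 2.63 ± 0.365 CPM in LDP males and 3.63 ± 0.148 CPM in control males.

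None of the other cholesterol and oxysterol hydroxylases passed in the recipients. Of 7 such genes 5 were fitted in recipients, 3 higher and 2 lower with a median of 0.15 (-0.15 to 0.19 without any 1 recipient; 4 higher and 1 lower by DESeq2 and under both other scalings, with Cyp27a1 at -0.00 here), and by edgeR 0 passed, 0 had an unadjusted p under 0.05 and DESeq2 called 0. Cyp39a1, which continues from 24-hydroxycholesterol, stood at 80.5, 114 and 167 CPM in LDP-microbiota recipients 2, 5 and 8, and at 76.9, 84.1 and 161 CPM in control-microbiota recipients 1, 3 and 7. Those groups overlapped almost fully (log2 change 0.16 ± 0.37 SE). Cyp7a1, the rate-limiting enzyme of the classic bile acid pathway, stood at 90.6, 113 and 81.1 CPM against 235, 183 and 32.8 CPM. It was lower than mice 1 and 3 but above mouse 7, a log2 change of -0.67 ± 0.64 SE that did not pass (adjusted p = 0.86, edgeR quasi-likelihood test). Cyp27a1, the mitochondrial sterol 27-hydroxylase, stood at 343 ± 34.6 and 341 ± 46.8 CPM (SD, n = 3 each). Cyp7b1, which takes 27-hydroxycholesterol further, stood at 29.9 ± 4.25 and 25.6 ± 3.94 CPM, and Cyp3a11, a broad P450 that can also hydroxylate sterols and has close paralogs that may share reads, at 3340 ± 1940 and 3000 ± 957 CPM. Cholesterol 25-hydroxylase (Ch25h) and the side-chain cleavage enzyme Cyp11a1 were too low to be fitted, each with means under 0.1 CPM in both groups of recipients.

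Per kb of gene length, with lengths from the authors' male table, Cyp46a1 stood at 10.6, 74.5 and 60.6 CPM per kb in LDP-microbiota recipients 2, 5 and 8. In the same mice Cyp7a1 stood at 21.7, 27.1 and 19.4 CPM per kb and Cyp39a1 at 26.4, 37.5 and 54.6. In mice 5 and 8 the level of Cyp46a1 was thus above those of Cyp7a1 and Cyp39a1, and in mouse 2 it was below both. Cyp27a1, at 167 to 202 CPM per kb, was above it in all 3. In control-microbiota recipients Cyp46a1 stood at 1.24 to 2.08 CPM per kb and Cyp7a1 at 7.85 to 56.4.

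**Figure D4:**
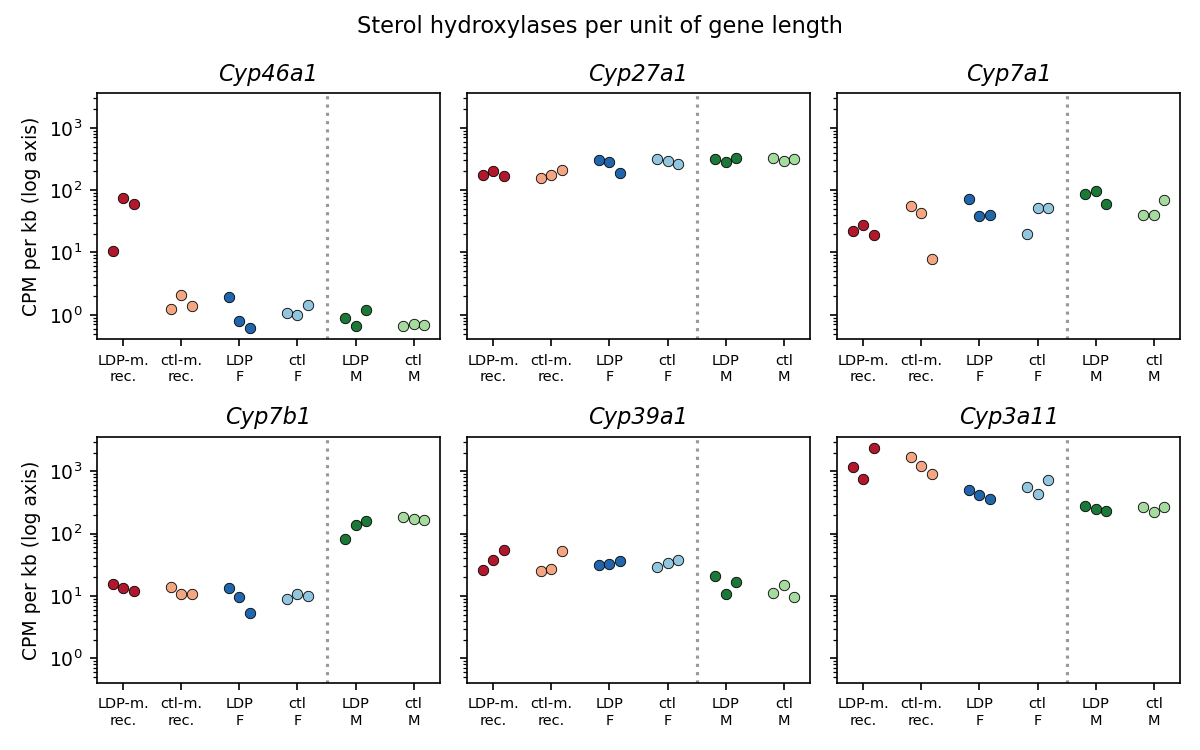
Level of 6 sterol hydroxylases in each mouse, in CPM per kb of gene length on a log axis, by group (LDP-m. and ctl-m. rec., LDP- and control-microbiota recipients; F, females; M, males; ctl, control; dotted line, change of count table). Cyp46a1 in LDP-microbiota recipients, at 10.6 to 74.5, reaches the range of Cyp7a1 and Cyp39a1, and in every other female group it lies below all 5 of them.

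In the C57BL6J mice the same 5 hydroxylases also gave 0 calls by edgeR and by DESeq2 in each sex. In females 2 were higher and 3 lower in LDP mice, with 0 at an unadjusted p under 0.05, and the nearest to it was Cyp3a11 at 1000 ± 175 CPM in LDP females and 1340 ± 319 CPM in control females (unadjusted p = 0.0641, edgeR quasi-likelihood test). In males 2 were higher and 3 lower, with 1 at an unadjusted p under 0.05. This was Cyp7a1, at 338 ± 79.5 CPM in LDP males and 207 ± 68.0 CPM in control males (log2 change 0.70 ± 0.28 SE, adjusted p = 0.92).

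LXR and its target genes, which 24S-hydroxycholesterol can activate, gave no call in the recipients. Of 13 genes on that list, all fitted, 5 were higher and 8 lower in LDP-microbiota recipients, with a median log2 change of -0.04 (-0.19 to 0.02 without any 1 recipient). By edgeR 0 passed, 1 had an unadjusted p under 0.05 and DESeq2 called 0. The 1 gene was Abca1, which exports cholesterol to apolipoprotein A-I, at 240, 191 and 173 CPM in LDP-microbiota recipients 2, 5 and 8, and 319, 282 and 214 CPM in control-microbiota recipients 1, 3 and 7 (log2 change -0.44 ± 0.18 SE, adjusted p = 0.846 by the edgeR quasi-likelihood test). Abcg1, another sterol exporter, stood at 6.69, 9.74 and 10.8 CPM, against 11.4, 11 and 10.5 CPM. Srebf1, which drives fatty acid synthesis, stood at 190, 167 and 203 CPM, against 383, 303 and 101 CPM. The spread among control-microbiota recipients exceeded the difference for Srebf1, as for Cyp7a1, and mouse 7 was the lowest for both.

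Genes of cholesterol synthesis and other SREBP2 targets, which 24S-hydroxycholesterol restrains, were higher in 22 of 27 in LDP-microbiota recipients, with a median log2 change of 0.46. Over all genes 48.4% were higher. None of the 27 passed by edgeR (0 of 27) or DESeq2 (0 of 27). As higher genes 8 had an unadjusted p under 0.05, against 2.25% of all genes. In 7 the LDP-microbiota recipients lay above their controls without overlap and in 1 below, against 6.74% and 5.05% of all genes. Without any 1 recipient the median was 0.26 to 0.53. Pmvk, a kinase of the mevalonate pathway, stood at 16.5, 24.1 and 15.9 CPM in LDP-microbiota recipients 2, 5 and 8, and at 11.3, 9.88 and 12.7 CPM in control-microbiota recipients (log2 change 0.72 ± 0.19 SE). Fdps, which makes farnesyl diphosphate, stood at 12.4, 22.8 and 8.36 CPM, against 4.19, 5.62 and 7.02 CPM (log2 change 1.35 ± 0.38 SE). Sqle, squalene epoxidase, stood at 8.23, 22.9 and 2.32 CPM, against 2.12, 1.84 and 4.51 CPM. Mouse 8, with a high Cyp46a1, was the lowest of the LDP-microbiota recipients for all 3 of these enzymes, and mouse 5, with the highest Cyp46a1, was the highest.

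**Figure D5:**
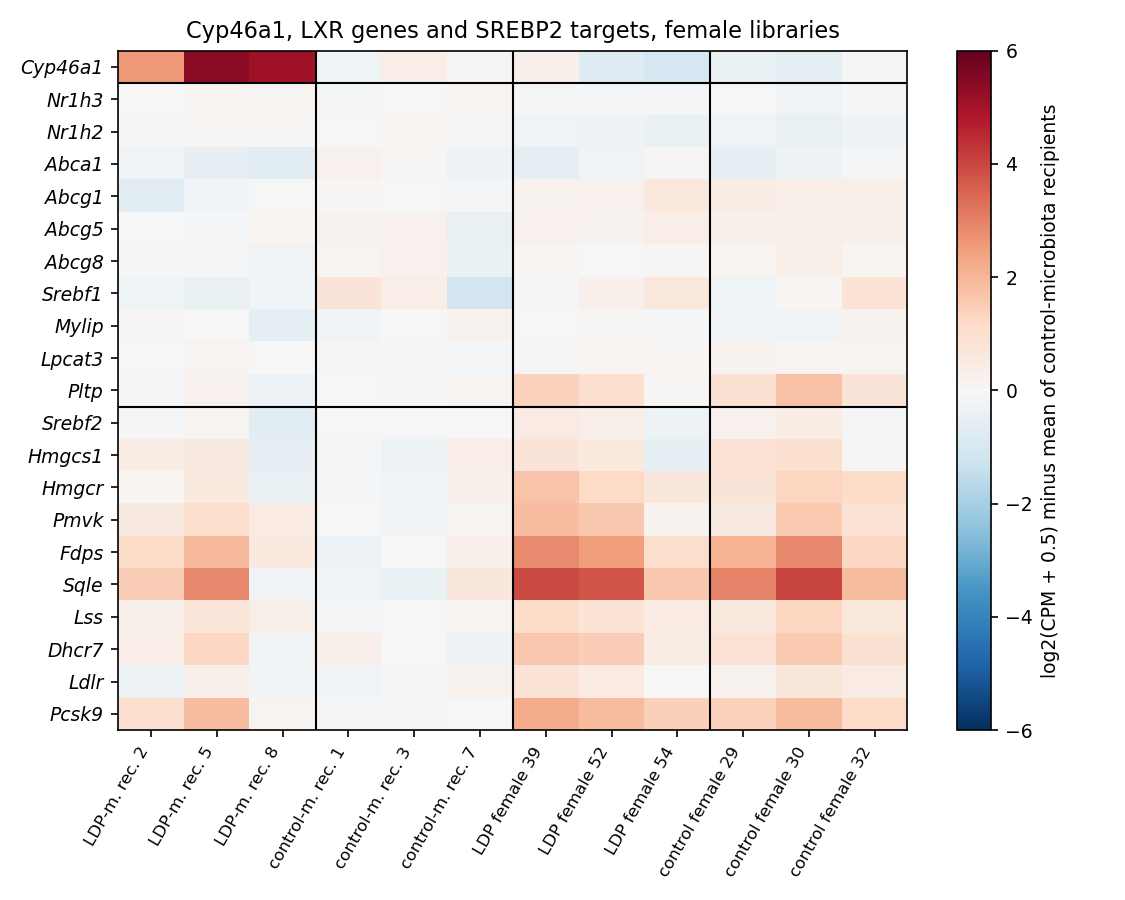
Cyp46a1 (top), LXR genes (middle) and SREBP2 with its targets (bottom) in the 12 female libraries, as log2(CPM + 0.5) minus the mean of control-microbiota recipients. Cyp46a1 is raised in all 3 LDP-microbiota recipients, while Sqle and Fdps are highest in mouse 5 of that group and lowest in mouse 8.

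The remaining lists gave as few calls in recipients. Of the later steps of bile acid synthesis 8 of 11 were higher by a median of 0.08, with 0 passing and Akr1c6 alone at an unadjusted p under 0.05 (1510 ± 73.3 CPM in LDP-microbiota recipients and 1160 ± 226 CPM in control-microbiota recipients). Genes of oxysterol conjugation, binding and esterification were higher in 5 of 12 fitted (median -0.03), with 0 passing and 0 at an unadjusted p under 0.05 by edgeR, and 0 called by DESeq2. Of the genes of cholesterol uptake and efflux 8 of 11 fitted were higher (median 0.03), with 0 passing by edgeR and 1 by DESeq2. Lipc, hepatic lipase, had the smallest p of them at 407 ± 2.66 CPM in LDP-microbiota recipients and 312 ± 19.5 CPM in control-microbiota recipients (log2 change 0.37 ± 0.11 SE). In LDP against control females these 5 lists besides the hydroxylases gave 0 calls by edgeR and by DESeq2, and 1 gene, Hsd17b4, at an unadjusted p under 0.05. In males the cholesterol synthesis list was higher in 26 of 27 by a median of 0.89, where 50.7% of all 15438 genes were higher. Of the 27, 0 passed by edgeR and 18 by DESeq2, which called 42 of all genes. As higher genes 23 had an unadjusted p under 0.05, against 3.17% of all genes. Without LDP male 11, 15 of the 27 passed by edgeR, with a median of 1.09, where 66 of all genes passed.

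Over the 12 female libraries the genes whose log2 CPM followed Cyp46a1 most closely, by Pearson correlation among 11951 genes with a mean of at least 1 CPM, were Commd1 (r = 0.97), Ces1e (0.92), C1qbp (0.92), Gpn1 (0.92), Anapc5 (0.91) and Timm44 (0.91). The 3 LDP-microbiota recipients that chose the gene enter these correlations, which are a description. The C57BL6J females are among the 12 libraries that ranked these genes, so they are no separate check. Within them alone the correlation was 0.97 for Ces1e, 0.69 for Commd1 and 0.65 for C1qbp. It was 0.40 for Anapc5, 0.11 for Gpn1 and 0.10 for Timm44. Commd1, a subunit of a complex that sorts cargo at endosomes, stood at 36.8, 43.4 and 39.4 CPM in LDP-microbiota recipients 2, 5 and 8, at 29.2 to 31.2 in control-microbiota recipients and at 27.7 to 30.8 in C57BL6J females. The LDP-microbiota recipients lay above the other 9, by a far smaller margin than for Cyp46a1 (log2 change 0.39 in recipients). Ces1e, a carboxylesterase with close paralogs that may share reads, stood at 149, 170 and 186 CPM, at 108 to 132 in control-microbiota recipients and at 77.4 to 104 in C57BL6J females. C1qbp and Timm44 are mitochondrial proteins, Gpn1 is a GTPase that helps import RNA polymerase II, and Anapc5 is a subunit of the anaphase-promoting complex. Their log2 changes in recipients were 0.17 to 0.37.

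The genes that ran most opposite were Prune2 (r = -0.93), Cenpl (-0.92), Ugt1a6a (-0.91) and Zfp217 (-0.90). Within the C57BL6J females alone, which also entered this ranking, Prune2 (-0.82) and Zfp217 (-0.67) ran opposite too. Cenpl was at 0.02 there, and Ugt1a6a ran the same way as Cyp46a1 (0.95). Cenpl, a centromere protein, stood at 4.41, 0.985 and 1.16 CPM in LDP-microbiota recipients 2, 5 and 8, at 4.04 to 5.75 in control-microbiota recipients and at 7.68 to 9.63 in C57BL6J females. Both Cenpl and Cyp46a1 set mouse 2 apart from mice 5 and 8, but Cenpl was chosen by its correlation over these mice. In mouse 2 Cenpl lay within the range of control-microbiota recipients, whereas Cyp46a1 lay above their range. Ugt1a6a, a glucuronosyltransferase whose exons are shared with other Ugt1a genes, stood at 19.6, 15.1 and 15 CPM, at 27.6 to 29 in control-microbiota recipients and at 35.7 to 45.0 in C57BL6J females. Over the 6 male libraries their correlations with Cyp46a1 ran from -0.93 for Prune2 to 0.79 for Ces1e, with C1qbp at -0.04 and Gpn1 at -0.64. By Spearman's rank correlation 0 of the 10 names were chosen again.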

How the data were processed

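Liver RNA from 18 mice was sequenced, 1 library per mouse. RNeasy Mini columns and TruSeq v2 reagents were used, per the labels' protocols. Per the submitters' processing notes, which give no roles, the tools were featureCounts 1.4.3-p1, HTSeq 0.5.3p9, DESeq and STAR 2.3.0e, with the mm10 build. Strandedness and the treatment of reads that match several genes are not given in the sources used here. The authors deposited raw counts per gene, in 1 table for the males (Ensembl IDs, with a gene length in bases, another deposited value) and 1 for the females (symbols). Of 38924 male IDs 96.6% were matched to a GENCODE M21 symbol, and all 144 genes of the pathway and cell type lists, which leave out the neighbours, were found in both tables, 3 of them by an older name in the female table.

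Each comparison used its own libraries, filterByExpr (minimum count 10, total 15), TMM scaling and the robust quasi-likelihood test of edgeR 4.0.16 in R 4.3.3, adjusted over all genes by Benjamini-Hochberg with a threshold of 0.05. SE were derived from the F statistic and are approximate. Nothing says that mice of a group came from separate litters or cages, so p-values measure the spread between these mice. Correlations and permutation tests used log2 CPM with a prior count of 0.5. The gene and the lists were chosen with earlier results of these data known. Genes were named by rule: every hydroxylase of its list, neighbours within 500 kb, up to 4 passing members or else the 2 of smallest p from each other list, and the 6 most alike and 4 most opposite genes; further examples (Isyna1, AA465934, Sqle, Srebf1, Ccnk and marker genes) were chosen after their values were seen. Alternatives were DESeq2 1.42.0, upper quartile or relative log expression scaling, all genes unfiltered, genes averaging 1 CPM, the fit without robust estimation, a spread shared by all 12 female libraries, and leaving out each mouse. The fits were tested on simulated data.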

Additional observations from a re-analysis of the deposited data

How the results depend on the processing

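The log2 change of Cyp46a1 hardly depended on scaling, filter or tool: over these alternatives it was 4.93 to 4.95 in recipients, 0.41 to 0.42 in males, -0.04 to -0.02 in C57BL6J females and 2.92 to 2.94 for all recipients against all C57BL6J females, a value that holds the mice which chose the gene. Without 1 mouse it was 4.49 to 5.41 in recipients, 0.18 to 0.60 in males and -0.69 to 0.26 in females. For all recipients against all C57BL6J females it was 2.71 to 3.27. In females it changed sign without control female 32 (0.15), LDP female 52 (0.16) or LDP female 54 (0.26), and it passed under none of these.

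Counts of called genes moved more. DESeq2 called 42 genes in males, 15 in females and 28 in recipients, where edgeR called 1, 0 and 1. Without a filter on low counts edgeR called 2, 1 and 2, and with the spread shared by all 12 female libraries 3 in recipients. Without 1 mouse the counts ran from 0 to 66 in males, 0 to 1 in females and 0 to 4 in recipients. For all recipients against all C57BL6J females they ran from 2806 to 3767, where the full set gave 3556. The 66 came without LDP male 11, and the recipients gave 0 without control-microbiota recipient 1 or LDP-microbiota recipient 5 and 4 without LDP-microbiota recipient 8. The cause was not tested. Of the 10 genes most like or opposite to Cyp46a1, Spearman's correlation chose 0 again. No paired analysis was possible because nothing in the sources used here pairs mice between the groups compared.

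With 3 mice a group, and 28 to 177 counts of Cyp46a1 in each library outside the LDP-microbiota recipients, small changes of this gene were not detectable.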
